A study of Gallus gallus with 2 samples.

Results

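The 7SK RNA and the P-TEFb elongation factors were described in 6C2, a chicken erythroleukemia cell line that represents early red cell precursors. The rule took every row of the deposited gene table with the symbol 7SK, each locus apart. It also took the rows of LARP7, MEPCE, CDK9, CCNT1, CCNT2 and the HEXIM genes. It found 12 rows of 17934: 9 loci of 7SK and 1 row each for CDK9, CCNT2 and LARP7. CCNT1, MEPCE and the HEXIM genes were not analysed here. The series held 1 group of 2 samples of cycling 6C2 cells with no treatment named, called replicate 1 and replicate 2. The labels place these cells at the erythroid colony-forming unit stage. Total RNA was depleted of ribosomal RNA and sequenced, and the labels do not state that the replicates were grown separately, so their spread may be technical.

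RNA polymerase II pauses soon after it starts on many genes, and the kinase P-TEFb releases it into elongation. P-TEFb is the kinase CDK9 bound to a T-type cyclin, encoded by CCNT1 or CCNT2. The 7SK RNA is a noncoding RNA made by RNA polymerase III. In mammals the enzyme MEPCE caps it, LARP7 binds its end and keeps it stable, and HEXIM proteins on it hold P-TEFb inactive until the complex comes apart. The proportions of RNA, kinase and binding protein are thus of interest in a cycling cell. The values below are RNA levels and do not give amounts of protein or of assembled complex.

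The table held 40064443 reads for replicate 1 and 30668939 for replicate 2. RPKM is the read number scaled by the length of the gene model and by the library total, so that levels of genes of different length can be set side by side. Genes that reached 1 RPKM in each of the samples are called detected. This held for 52.6% of the 16464 analysed genes. Erythroid markers were detected for 6 of 6 measured genes, with the globin genes HBAA at 1083 and 1252 RPKM and HBAD at 77.86 and 75.48, TFRC at 263.6 and 297.6, and CA2 lowest at 25.06 and 22.92. EPOR and GATA1, also on that list, were not analysed here. Of 9 markers of other blood cells and stroma 1 was detected, CD3E, at 2.42 and 2.91 RPKM. COL1A2 at 0.88 and 1.57 and CD3D at 0.57 and 0.78 came next, and CD79B was lowest at 0.03 and 0.04. The summed level of those 9 markers was 4.41 RPKM in replicate 1 and 6.03 in replicate 2.

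Nearly all 7SK reads in 6C2 cells were counted at a single locus on chromosome 3. This locus, ENSGALG00000017926, lies at chr3:91173171-91173499 on the minus strand in the coordinates of the table, whose genome build is unknown here. It held 2935488 reads in replicate 1 and 2011320 in replicate 2, or 99.71% and 99.78% of all reads listed under 7SK. Its level was 225368 RPKM in replicate 1 and 201678 RPKM in replicate 2, and it ranked 1 among the 16464 analysed genes. Over its model of 328 bp this is 8950 reads per base in replicate 1 and 6132 in replicate 2. Summed over the 9 loci, 7SK took 7.35% of all reads in replicate 1 (exact binomial 95% interval 7.34 to 7.36) and 6.57% in replicate 2 (6.56 to 6.58). Among reads of small RNAs its share was 22.4% in replicate 1 and 19.2% in replicate 2. Such intervals hold counting error alone and treat each read as a separate draw. PCR can copy a molecule into several reads, so they may be too narrow. The samples lay farther apart than these intervals.

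The other 8 loci held 8439 reads in replicate 1 and 4467 in replicate 2, which is 0.287% and 0.222% of the 7SK reads. The highest of them, ENSGALG00000024676 at chr1:52392546-52392871, had 6552 reads in replicate 1 and 2703 in replicate 2. Its level was 507.7 and 273.5 RPKM, so it lay 443.9-fold under the chromosome 3 locus in replicate 1 and 737-fold under it in replicate 2. ENSGALG00000017930 at chr4:24950254-24950541 had 1570 and 1586 reads, or 137.8 and 181.8 RPKM. The chromosome 1 locus was thus the higher of this pair in both samples, and the ranges of the pair did not overlap.

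ENSGALG00000024970 at chr2:53874218-53874531 held 172 and 144 reads, or 13.84 and 15.13 RPKM. ENSGALG00000025413 at chrZ:69687107-69687414 held 137 and 31 reads, or 11.24 and 3.32 RPKM. The chromosome Z locus was the lowest of the 5 detected loci in both samples. ENSGALG00000025607 at chr2:153333134-153333463 had 5 and 2 reads, and ENSGALG00000025193 at chr1:24920353-24920586 had 3 and 1. Both stayed under 1 RPKM. The shortest models, ENSGALG00000025597 of 77 bp on chromosome 13 and ENSGALG00000025691 of 37 bp on chromosome 5, had 0 reads in both samples. For the model of 77 bp, 0 reads still leave room for 0.981 RPKM in replicate 1 and 1.28 in replicate 2. For the model of 37 bp these limits are 2.04 and 2.67 RPKM. At 37 bp a level at the detection threshold of 1 RPKM could have been missed in both samples. At 77 bp this holds for replicate 2, while the limit in replicate 1 lies just under the threshold.

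**Figure D1:**
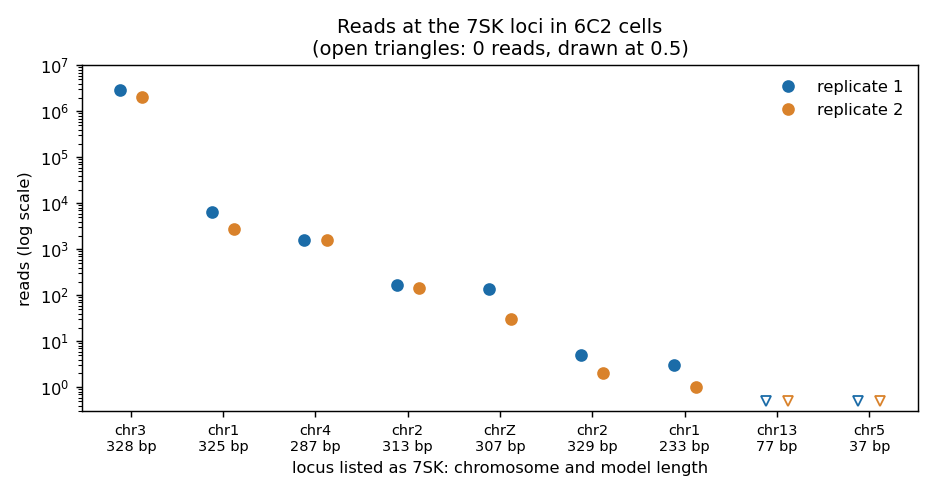
Reads at each of the 9 loci listed as 7SK (horizontal axis, chromosome and model length) on a log scale (vertical axis), for replicate 1 in blue and replicate 2 in orange, with open triangles for 0 reads. The chromosome 3 locus holds 2935488 and 2011320 reads, and the next, on chromosome 1, 6552 and 2703.

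Length alone did not order the loci. The 328 bp model on chromosome 3 and the 329 bp model on chromosome 2 are close in length, yet the one on chromosome 2 held 5 and 2 reads. The treatment of reads that match several loci is not stated in the labels or the file, so the reads of the lesser loci cannot be assigned to them with certainty. Relative to the reads of the chromosome 3 locus, the chromosome 1 locus stood at 0.223% in replicate 1 and 0.134% in replicate 2. The chromosome 4 locus stood at 0.0535% and 0.0789%. These shares differed between the samples, in opposite directions, and which locus the reads came from was not tested.

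The chromosome 3 locus overlapped no other listed gene, though one lies close to it. ENSGALG00000016322 starts 353 bp from it on the opposite strand, and it stood at 3.30 RPKM in replicate 1 and 2.82 in replicate 2. ICK, a kinase gene, ends 3172 bp away on its other side, at 7.01 and 8.53 RPKM. The 7SK locus stood at 68293 and 71517 times the level of the first of these neighbours and at 32150 and 23643 times that of ICK. Of the other loci, 4 overlapped a listed gene, 2 on its strand and 2 on the strand opposite. The chromosome 4 locus lies within KLHL2 on the opposite strand and stood 6.89 and 7.89 times as high as KLHL2, which was at 20.00 and 23.05 RPKM. Whether the counting used strand is not given, so reads of these loci and of the genes around them cannot be told apart.

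Set beside the other RNAs of RNA polymerase III with a row on the list, 7SK was the highest in sequenced reads per length. This order is not one of amounts in the cell. Size selection can weigh short RNAs differently, and the treatment of reads matching several copies is not stated. 7SL RNA and tRNAs were not analysed here. The highest Y RNA row, of a family bound by the Ro protein, stood at 44495 RPKM in replicate 1 and 49106 in replicate 2, and 7SK was 5.06 and 4.11 times that level. The RNA of nuclear RNase P, which trims tRNA precursors, stood at 25340 and 31181 RPKM, and 7SK was 8.89 and 6.47 times as high. The RNA of RNase MRP, which cuts ribosomal RNA precursors, was at 7226 and 12456 RPKM. U6atac, of the minor spliceosome, was at 4577 and 4719 RPKM, and the vault RNA at 686.1 and 533.6. The highest 5S ribosomal RNA row stood at 4597 RPKM in replicate 1 and 13753 in replicate 2. Because ribosomal RNA was depleted, these values may not give the 5S level of the cells. Like 7SK, the highest rows of vault RNA and U6 were higher in replicate 1, while those of Y RNA, RNase P, RNase MRP, 5S and U6atac RNA were higher in replicate 2. Of the 53 rows of these other RNAs, 24 were higher in replicate 1 and 15 in replicate 2. Over all 16464 analysed genes, 5895 were higher in replicate 1 and 9397 in replicate 2. However, 29 of the 53 rows were not detected, and many of those held a few reads or none. Their direction thus rests on counts near the floor, and what lies behind it was not tested.

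**Figure D2:**
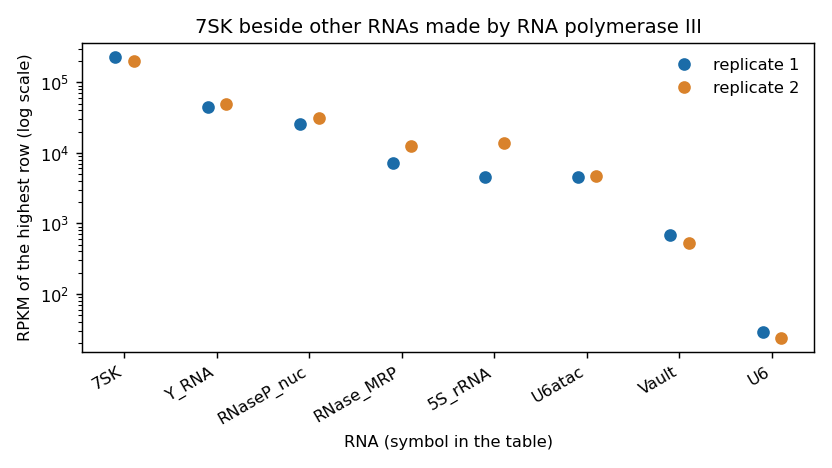
RPKM of the highest row of each RNA made by RNA polymerase III (vertical axis, log scale) in replicate 1 (blue) and replicate 2 (orange). 7SK stands at 225368 and 201678, above the highest Y RNA row at 44495 and 49106.

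All 3 protein members were detected, and they kept one order in both samples, with CDK9 above CCNT2 and CCNT2 above LARP7. Of the 12 member rows 8 were detected, against 52.6% of all 16464 analysed genes. CDK9, the catalytic subunit of P-TEFb, lies at chr17:5523533-5530102 and held 1656 reads in replicate 1 and 1431 in replicate 2. Its level was 16.75 RPKM in replicate 1 and 18.90 in replicate 2, or 17.8 ± 1.52 (SD, n = 2). CCNT2, a cyclin that activates CDK9, lies at chr7:32068774-32094349 and held 690 and 725 reads. It stood at 7.61 and 10.45 RPKM, or 9.03 ± 2.01 (SD, n = 2). LARP7, the 7SK-binding protein, lies at chr4:58637724-58665365 and held 444 and 395 reads. It stood at 4.86 and 5.64 RPKM, or 5.25 ± 0.552 (SD, n = 2). The ranges of the 3 genes over the samples did not overlap.

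The exact Poisson 95% intervals of the counts were also apart within each sample. In replicate 1 they ran from 15.95 to 17.57 RPKM for CDK9, from 7.06 to 8.20 for CCNT2 and from 4.42 to 5.33 for LARP7. In replicate 2 they ran from 17.93 to 19.91 for CDK9, from 9.70 to 11.24 for CCNT2 and from 5.10 to 6.23 for LARP7. Among all analysed genes CDK9 lay at percentile 78.4 by mean RPKM, CCNT2 at 67.2 and LARP7 at 59.6. The detected genes of the table had a median of 13.4 RPKM, so CDK9 lay above that median and CCNT2 and LARP7 below it.

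**Figure D3:**
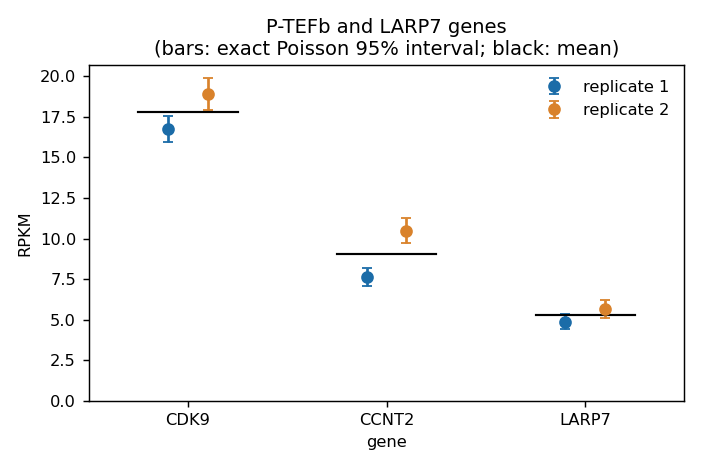
RPKM of CDK9, CCNT2 and LARP7 (vertical axis) in replicate 1 (blue) and replicate 2 (orange), with exact Poisson 95% intervals of the counts as bars and the mean as a black line. CDK9 lies at 16.75 and 18.90, above CCNT2 at 7.61 and 10.45 and LARP7 at 4.86 and 5.64.

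Ratios within a sample do not depend on its library total. CDK9 stood at 3.45 times LARP7 in replicate 1 and 3.35 times in replicate 2, so this ratio hardly differed between the samples. CDK9 stood at 2.20 times CCNT2 in replicate 1 and 1.81 times in replicate 2. CCNT2 stood at 1.57 times LARP7 in replicate 1 and 1.85 times in replicate 2. The RNA was far above all of them per length. The chromosome 3 locus of 7SK stood at 46372 times LARP7 in replicate 1 and 35758 times in replicate 2, and at 13455 and 10671 times CDK9. These last ratios join a short structured RNA to long messenger RNAs, and fragmentation with RNase III and size selection can weigh such RNAs differently, so they are ratios of sequenced reads per length.

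The 3 protein members were higher in replicate 2, and 7SK was higher in replicate 1. Of the 6766 genes of mean RPKM at least 5, 58.4% were higher in replicate 2, and their median log2 ratio of replicate 1 over replicate 2 was -0.045. That median was -0.11 over all genes with a read in both samples and -0.078 against a total without small RNAs. That log2 ratio was -0.17 for CDK9, -0.46 for CCNT2 and -0.21 for LARP7. The middle 95% of those genes lay between -0.61 and 0.45, and all 3 members lay within it. CCNT2 was the farthest out, with 6.36% of the genes more strongly tilted to replicate 2. None of the 3 passed 1.5-fold, a difference that 2.93% of these genes reached toward replicate 2. The chromosome 3 locus of 7SK had a log2 ratio of 0.16, also within the middle 95%.

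At some of the lesser 7SK loci the samples differed more. The chromosome 1 locus was 1.86-fold higher in replicate 1 and the chromosome Z locus 3.39-fold higher there, while the chromosome 4 locus was 1.32-fold higher in replicate 2. The 313 bp locus on chromosome 2 differed less, at 1.09-fold higher in replicate 2. For the chromosome 3 locus the difference was 1.12-fold toward replicate 1. Of the 5 loci of mean RPKM at least 5, 2 passed 1.5-fold. Of all small RNAs at that level 18.5% did so in either direction, out of 297. With 1 sample on each side there is no replicate check of these differences.

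**Figure D4:**
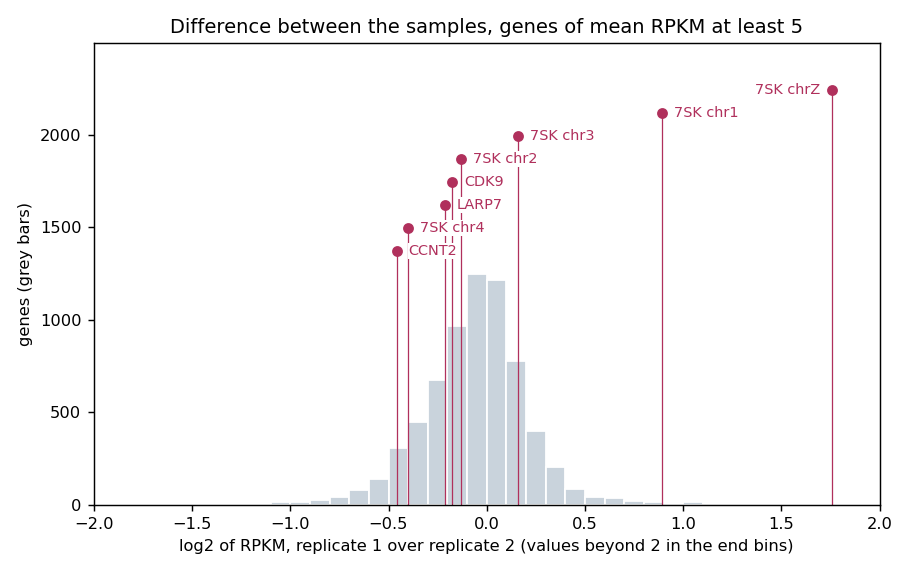
Number of genes of mean RPKM at least 5 (grey bars, vertical axis) by log2 ratio of RPKM, replicate 1 over replicate 2 (horizontal axis), with the 8 members of that level as red points at heights chosen for legibility. CDK9, CCNT2 and LARP7 lie between -0.46 and -0.17, and the 7SK locus on chromosome Z lies at 1.76.

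The genes next to the protein members were lower than the members themselves. Near CDK9, FPGS, which adds glutamate to folates, stood at 3.65 RPKM in replicate 1 and 6.61 in replicate 2, and SH2D3C was at 0.33 and 0.47. ENG, a co-receptor for TGF-beta ligands, had 2 and 5 reads. Near CCNT2, the genes TMEM163 and ACMSD had 3 reads each in both samples, and YSK4 had 3 and 4. CCNT2 was thus the one well covered gene among the rows listed within 10 kb of it. Near LARP7, the models listed as C4ORF21 stood at 2.10 and 2.28 RPKM in replicate 1 and at 2.64 and 2.97 in replicate 2.

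LARP7 carries a cluster of microRNAs, as it does in human. The rows gga-mir-302a, gga-mir-302b, gga-mir-302c, gga-mir-302d, gga-mir-367 and gga-mir-1811 all lie within the span of LARP7, on the opposite strand and over 1108 bp. The family of mir-302 is known from pluripotent stem cells in mammals. All 6 rows had 0 reads in both samples. LARP7 itself was detected, as were 52.6% of all 16464 analysed genes. These models are 64 to 80 bp long, and their limits at 0 reads ran from 0.944 to 1.18 RPKM in replicate 1 and from 1.23 to 1.54 in replicate 2. The rows are precursors, and mature microRNAs were not measured apart from them. Size selection can weigh such short RNAs differently, and the share of other microRNA rows with 0 reads is not given here. The 0 reads thus do not show that the cluster is silent.

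The named genes closest in level, over the 2 samples and without regard to function, differed from each protein member by at most 0.014 in mean log2(RPKM + 1). For CDK9 they were CRNKL1 and CCDC75 above it and ANKLE2 and SESN1 below it in mean RPKM. ARFIP1, LEPROT, RNASEN and TXNL4B stood beside CCNT2. CLDN12, CX3CL1 and OSMR were among those beside LARP7.

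Genes on 7 lists of elongation factors and of kinases, cyclins and phosphatases of the RNA polymerase II tail were nearly all detected. Of 45 measured genes on these 7 lists, 44 were detected, with a median of 16.5 RPKM. Over all analysed genes 52.6% were detected, with a median of 1.83 RPKM. Over named genes that are no small RNA, a closer background, 60.3% were detected, with a median of 4.19 RPKM. Among detected genes of the table the median was 13.4. CDK9 lay near the middle of the 45 listed genes, with 21 of the 45 above it. LARP7 lay low among them, with 8 of the 45 below it.

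In the super elongation complex, which brings P-TEFb to genes, 8 of 9 measured members were detected. EAF2, a partner of the ELL elongation factors, led with 182.9 RPKM in replicate 1 and 157.6 in replicate 2, far above CDK9. The scaffold gene AFF4 stood at 25.53 and 28.28 and EAF1 at 23.60 and 19.08. The scaffold genes differed widely: AFF3 was at 0.07 and 0.05 and was the one member not detected. Of the bromodomain proteins that recognise acetylated histones, BRD2 stood at 10.99 and 15.88 and BRD3 at 4.46 and 5.32.

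The pausing factors NELF and DSIF were detected for 4 of 4 measured genes. SUPT4H1, a subunit of DSIF, stood at 59.39 and 62.37 RPKM. The NELF subunit genes listed as COBRA1, TH1L and WHSC2 stood at 32.05 and 32.38, at 11.74 and 10.98, and at 8.12 and 8.36. Of the PAF complex and elongation chaperones, 8 of 8 were detected. WDR61, a PAF subunit, led with 146.1 and 131.8 RPKM, followed by the histone chaperone gene SSRP1 at 57.77 and 66.32 and RTF1 at 26.38 and 24.55. LEO1 was lowest at 4.04 and 4.09.

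CDK9 was not the highest of the kinase genes that act on the tail of RNA polymerase II. CDK7, the kinase of the initiation factor TFIIH, stood at 38.07 and 30.25 RPKM, above CDK9 in both samples. Its partners MNAT1 and CCNH stood at 48.21 and 48.81 and at 43.01 and 38.87. CCNC, the cyclin of the Mediator kinase, led the list of 12 with 52.63 and 53.65. CDK13 was at 15.66 and 20.58, a range that overlaps that of CDK9. CDK12 was at 7.03 and 11.10 RPKM and CDK19, the lowest, at 3.41 and 5.20, both below CDK9 in each sample. All 12 genes of the list were detected.

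Phosphatases and adaptors of the same tail were detected for 6 of 6 measured genes. SSU72 led with 79.32 and 73.93 RPKM, followed by RPRD1B at 53.00 and 49.64 and CTDSPL2 at 18.40 and 19.36. RPRD1A was lowest at 1.84 and 2.55. TFIIS and elongin, which help polymerase past blocks, were detected for 4 of 4 genes and all lay above CDK9 in mean level. TCEA1 stood at 71.43 and 64.37, TCEA2 at 37.81 and 40.69, and the elongin genes TCEB1 and TCEB3 at 30.35 and 27.99 and at 20.35 and 20.89.

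LARP7 was the lowest of the 6 measured genes of the La-related family, whose members bind the ends or other parts of RNAs. SSB, which encodes the La protein that binds new transcripts of RNA polymerase III, stood at 94.99 and 95.97 RPKM. LARP4B was at 30.94 and 34.76 and LARP6 at 31.83 and 30.81. The ranges of these 3 genes lay above that of LARP7 in both samples. On a list of RNA-binding and other proteins drawn up around 7SK and P-TEFb, 14 of 15 measured genes were detected, with a median of 49.2 RPKM. Of all named genes that are no small RNA, 60.3% were detected. NPM1 led the list with 414.4 and 287.9, then NCL with 206.3 and 243.1 and the splicing factor gene SRSF1 with 156.9 and 179.6. BCL11B, a zinc finger gene of T cells and neurons, was at 0.11 and 0.13.

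A list of RNA polymerase III subunits and promoter factors, drawn up around transcription of 7SK but holding BRF1 too, was detected for 17 of 17 measured genes. The share over all named genes that are no small RNA was 60.3%. Its median was 11.3 RPKM, below the median of 13.4 over all detected genes that were analysed. TBP, which binds the TATA box, led with 42.77 and 44.34 RPKM. SNAPC1, a subunit of the complex that binds upstream of small nuclear RNA genes, was at 37.47 and 32.22, and the polymerase subunit gene POLR3F at 29.62 and 29.36. BRF2, the factor used at 7SK and U6 promoters in human, was low, at 1.87 and 2.86. BRF1, its counterpart at tRNA genes, was at 12.51 and 10.01 on its longer model. POLR3G was the lowest of the list at 1.35 in both samples.

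**Figure D5:**
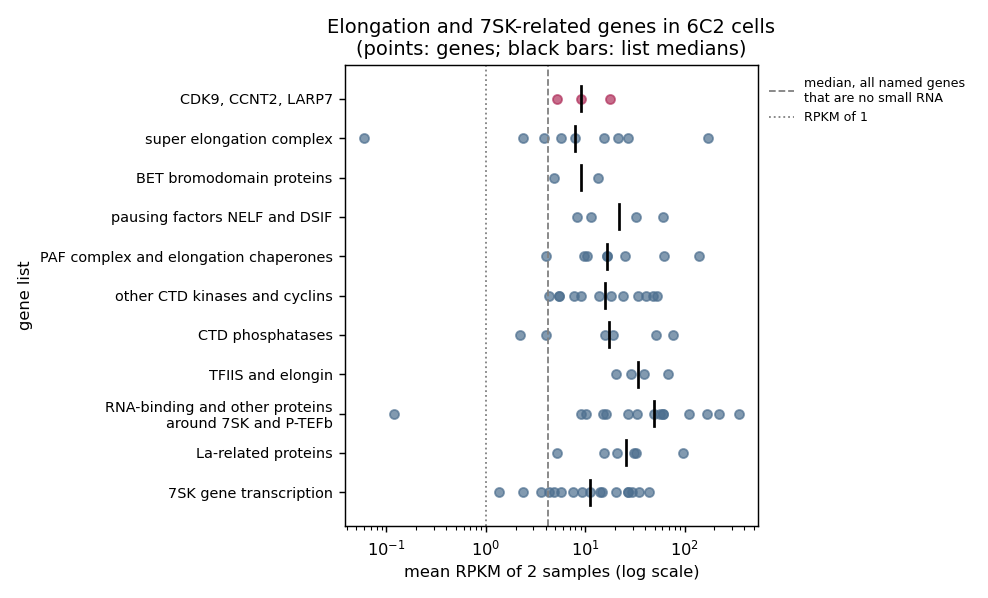
Mean RPKM of the 2 samples (horizontal axis, log scale) for each gene of the lists (rows). CDK9, CCNT2 and LARP7 are in red on top, the genes of each list in blue and list medians as black bars. LARP7 is drawn again in blue among the La-related proteins. The dashed line is the median of 12645 named genes that are no small RNA, 4.19 RPKM, and all 3 red points lie above it.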

How the data were processed

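Total RNA of 6C2 cells was treated with DNase, depleted of ribosomal RNA, fragmented with RNase III and made into SOLiD libraries, per the labels' protocols. Per the file headers, the authors deposited counts of reads and RPKM side by side for each gene. The labels and the file name no aligner, counting tool, build or annotation release. The deposited RPKM could be recomputed from count, length and 1 library total per sample, within 0.005 plus 0.01 percent. Of 17934 rows, 1470 had no symbol and 0 reads and were left out. Small RNAs were 737 rows chosen by symbol, under 400 bp.

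No groups could be compared, so no test was run. Intervals are exact at 95%, and the limit at 0 reads is what 3 reads would give. The members and lists were chosen with earlier results of these data known. Each list was matched by symbol, older symbols included, with the longest model, and its 3 highest genes and its lowest are named (for RNAs of RNA polymerase III, the highest row of each), with all measured genes of the short lists. Rows within 10 kb of a member and the nearest named genes of at least 200 bp in level are named too, except a few that are left out here. CDK7, CDK12, CDK13, BRF1 and BRF2 were named after their values were seen. Ratios between samples, intervals of counts and matching by symbol were tested on simulated Poisson counts. That simulation held no other spread between samples and no reads matching several loci. Software was scipy 1.17.1, pandas 2.3.3, numpy 2.4.6, matplotlib 3.10.9 and Python 3.11.15.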

Additional observations from a re-analysis of the deposited data

How the results depend on the processing

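Beside leaving out a replicate, 44 alternatives over 19 results were run. Of these, 26 moved the value by less than its spread, 18 moved it by more, and 0 changed a direction. Levels, shares, percentiles and counts have no direction to change, and a pseudocount cannot reverse a log2 ratio. The 0 was thus fixed in advance for most alternatives and says little of stability. The spread was 1 SD of the samples, 1.5 times for a count, counting error for a log2 ratio of a member and the SD over genes for the median log2 ratio. Against a total without other small RNAs, the share of 7SK was 9.47% and its summed level 288839 RPKM. As TPM the summed level was 66349. CDK9, CCNT2 and LARP7 stood at 26.6, 13.5 and 7.84 RPKM against a total without small RNAs, and at 5.52, 2.80 and 1.63 TPM. Among genes of mean RPKM at least 0.1 their percentiles, as means over the samples, were 70.8, 55.5 and 45.3. As read counts, 7SK over LARP7 was 5852, 7SK over CDK9 1589 and CDK9 over LARP7 3.68. With lengths reduced by 100 bp, 7SK over LARP7 was 56515 and 7SK over CDK9 16658. The log2 ratio of 7SK between the samples was 0.13 against a total without small RNAs.

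No paired analysis was possible because the series has 1 group. Without one replicate a value is that of the other, which with 2 samples always lies within 1 SD of the mean, so this says nothing of stability. Depth limits the 7SK loci with few or no reads.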

Other observations

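Copies of other RNAs made by RNA polymerase III also held unequal numbers of reads in the table. Of their 53 rows 24 were detected, or 45.3%, against 52.6% of all analysed genes. Of the 17 rows of 5S ribosomal RNA, the highest held 94.5% of the reads in replicate 1 and 97.4% in replicate 2. Of the 3 rows of U6atac, the highest held 99.98% and 99.99%. The highest of the 3 Y RNA rows held 78.3% and 84.6%. The 26 rows of U6, the spliceosomal RNA, held 365 reads in all in replicate 1 and 225 in replicate 2, and the highest held 33.4% and 34.2% of them. The highest U6 row stood at 28.98 and 23.89 RPKM, under U6atac at 4577 and 4719. The labels and the file do not state how reads matching several copies were treated, and the part of this in the values was not tested.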
